A study of Caenorhabditis elegans with 4 samples.

Results

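The transcriptome described here is that of wild type nematode larvae (Caenorhabditis elegans) in L1, the stage that follows hatching, shortly after their first meal. It rests on 2 of the 4 samples of the series, the libraries labelled wild type on L4440, which were taken by their labels and not by any measured value. Both came from strain N2, the standard laboratory wild type, raised on bacteria that carry L4440, the RNAi vector without an insert, so no gene was targeted. Parents were grown on these bacteria for 60 to 65 h at 20 °C, embryos were freed with hypochlorite and hatched in M9 buffer without food for 18 h, and the hatched larvae were fed for 2 h 30 min before lysis. All larvae in both libraries therefore went through starvation and refeeding, and no fed or starved larvae without that history are part of the data used here. The series text calls the 2 replicates independent biological ones. The other 2 samples, larvae with a met-1 mutation on RNAi against mes-4, were not compared. They entered only the estimation of alternative scaling factors.

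L1 larvae that hatch without food stop developing before their postembryonic cell divisions begin, and live on stored fat and glyoxylate-cycle metabolism. Food ends the arrest through insulin-like signalling and the kinase TOR, and protein synthesis, blast cell divisions and, some hours later, the larval molting cycle follow. At hatching the animal already has its pharynx, intestine, body wall muscle, epidermis and most of its neurons. Its gonad holds only a pair of primordial germ cells and a pair of somatic precursors, and it has no sperm, oocytes or vulva.

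Levels are given as CPM, the count of a gene per 1000000 counts of its library, and, to compare genes of different length, as CPM per kb, which is CPM divided by the deposited width of the gene model in units of 1000 bases. The libraries held 33272359 counts in replicate 1 and 32593317 in replicate 2, so 1 CPM stood for 33.3 and 32.6 reads. A gene with no read could have reached about 3 reads, which is 0.0902 CPM in replicate 1 and 0.0920 CPM in replicate 2, from counting error alone. A gene is called present at 1 CPM per kb or more in both libraries, silent below 0.1 CPM per kb in both, and low otherwise. Each library is a whole-larva extract, so a small number of expressing cells and little RNA per cell cannot be told apart.

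Of 20392 genes, 12194 were present (59.8%), 4591 were low and 3607 were silent (17.7%). At least 1 read was found for 17884 genes in replicate 1 and 17581 in replicate 2, and 1975 genes had none in either. The median gene stood at 3.63 CPM per kb in replicate 1 and 3.20 in replicate 2. The thresholds cut a continuous range: 378 genes lay between 1 and 1.25 CPM per kb and 372 between 0.8 and 1. Levels were unevenly spread, since the 97 genes at 1000 CPM per kb or more took 24.3% of the counts, the 6447 genes between 10 and 100 took 41.8%, and the 4115 genes below 0.1 took 0.0103%. In replicate 1, 490 genes held 50% of the counts, and in replicate 2, 460 genes did.

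Duplicated genes need a separate reading. In the WBcel235 annotation 195 identifiers share their symbol with at least 1 other identifier, mostly as copies of equal length, and 187 of these had no read in either library. Levels of 0 in tandem or near-identical genes, such as many histone, major sperm protein, hsp-16, abu and vitellogenin genes, are therefore given as counts in the table and not as absence of RNA. How reads with several places in the genome were counted is not given in the sources used here.

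The most abundant RNAs were those of mitochondria and of protein synthesis. The 20 genes highest by CPM took 12.62% of the counts in replicate 1 and 13.02% in replicate 2 (12.8% ± 0.287, SD, n = 2), with Wilson 95% intervals for counting error of 12.61% to 12.63% and 13.01% to 13.03%. Among them were 6 mitochondrial genes, 6 ribosomal protein genes and 8 others: the elongation factors eef-1A.1, eef-2 and eef-1G, the chaperones hsp-1 and hsp-90, the muscle myosin unc-54, the ATP synthase subunit atp-2 and sca-1, the calcium pump of the sarcoplasmic and endoplasmic reticulum. Ranked per kb, the 20 highest were 5 mitochondrial genes, 14 ribosomal protein genes and eef-1A.1, and 11 genes were in both rankings. The elongation factor eef-1A.1, which brings aminoacyl-tRNA to the ribosome, stood at 4217 CPM per kb in replicate 1 and 4266 in replicate 2. Its paralogue eef-1A.2 was lower, with eef-1A.1 at 4.48 and 3.98 times its level per kb in replicates 1 and 2. As paralogues can share reads, this ratio bears the limit on duplicated genes given above.

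**Figure D1:**
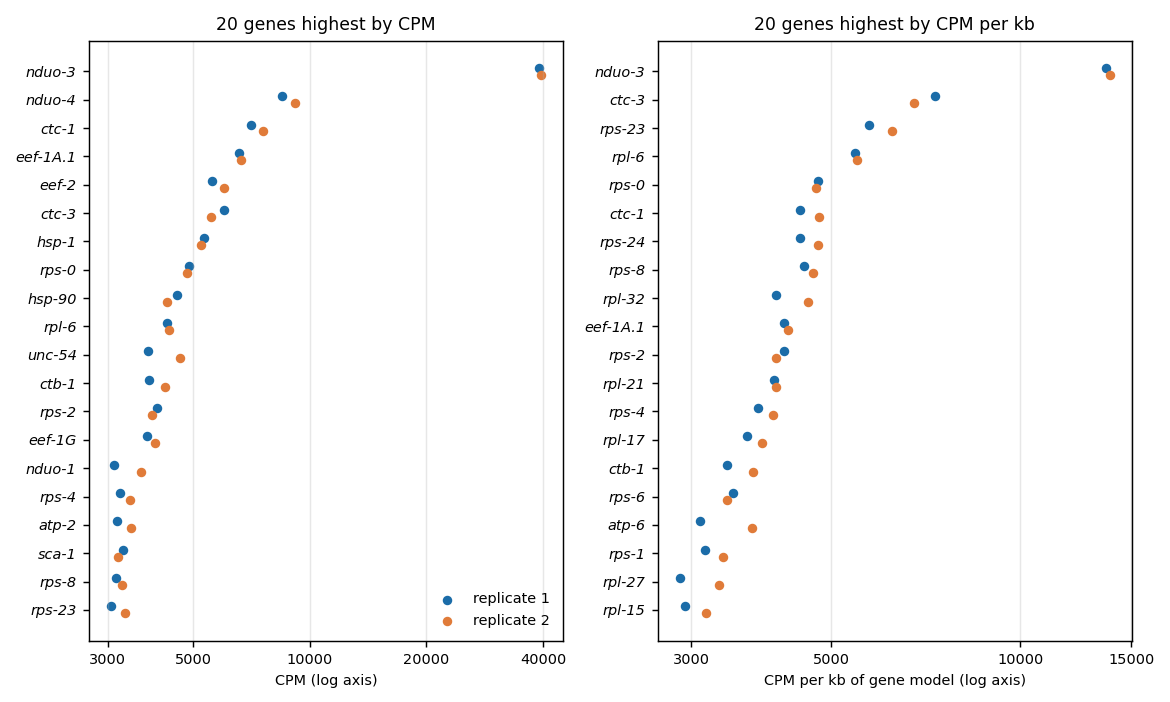
The 20 genes highest by mean CPM (left) and by mean CPM per kb of gene model (right) in wild type L1 larvae, both on log axes, with replicate 1 in blue and replicate 2 in orange. nduo-3 stands apart at 39037 and 39657 CPM, and the other genes of each panel form a continuous slope in which the 2 replicates lie close together.

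Mitochondrial transcripts made up 7.48% of the counts in replicate 1 and 7.80% in replicate 2, from 12 genes that were all present. One gene model, nduo-3, a subunit of respiratory complex I, held 52.2% of these counts in replicate 1 and 50.8% in replicate 2. Its deposited width is 2855 bases, 8.57 times its coding length of 333 bases, and its neighbour in the mitochondrial genome is a ribosomal RNA gene. How many of its reads came from ribosomal RNA or from another neighbouring gene was not tested. The width of nduo-4, at 2921 bases, was 2.38 times its coding length. The widths of nduo-1 (1541 bases) and nduo-6 (726 bases) were 1.77 and 1.68 times theirs. Models that match their coding length were highest for the cytochrome oxidase subunits ctc-3 (7322 and 6788 CPM per kb in replicates 1 and 2) and ctc-1 (4462 and 4785). Cytochrome b, encoded by ctb-1, stood at 3423 and 3764 CPM per kb. The lowest was ndfl-4, a complex I subunit with 142 CPM per kb in replicate 1 and 171 in replicate 2.

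The growth machinery was high throughout. Of 81 ribosomal protein genes matched by symbol 80 were present, with a median of 1529 CPM per kb against 3.46 over all genes, and together they took 10.2% and 10.8% of the counts in replicates 1 and 2. The highest were rps-23 at 5738 and 6245 CPM per kb, rpl-6 at 5450 and 5505, and rps-0 at 4771 and 4729, and the single low member was rpl-42 at 0.463 and 0.769. All 25 translation factor genes were present (median 356 CPM per kb), with eef-2, the translocation factor, at 1977 and 2130 CPM per kb. All 16 genes for the nucleolus and ribosome assembly were present as well (median 132). There fib-1, the fibrillarin that methylates ribosomal RNA, stood at 469 and 534 CPM per kb and nol-56 at 356 and 436. Proteasome subunits were less abundant (median 49.8), with all but rpn-6.2 of 33 present and rpn-13, the ubiquitin receptor, highest at 156 and 172. The width of rpn-13, 2721 bases, is longer than its exons in WBcel235, 1494 bases. Whether some of its reads came from another gene was not tested.

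Replication and cell cycle genes were nearly all present. Of 45 genes 44 passed 1 CPM per kb in both libraries, with a median of 18.7, and the B-type cyclin cyb-2.1 was low at 1.04 and 0.581. The ribonucleotide reductase subunits, which make the deoxynucleotides for replication, were close to each other, with rnr-2 at 66.5 and 66.6 CPM per kb and rnr-1 at 55.1 and 53.0. The pericentriolar scaffold gene spd-5 stood at 51.8 and 54 and the replicative helicase subunit mcm-2 at 33.6 and 32.3. Core and variant histones gave a split picture: 29 of 81 were present, and 44 had no read in either library. The highest were his-3 at 466 and 649 CPM per kb and his-37 at 406 and 295. Because most worm histone genes are near-identical copies, the 46 silent members cannot be read as unused.

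Genes of energy metabolism were mostly present. Nuclear genes of the respiratory chain had a median of 110 CPM per kb, with 62 of 63 present, led by atp-2, the catalytic subunit of ATP synthase (1633 and 1769), and cyc-2.1, a cytochrome c (1089.8 and 1106). The second cytochrome c gene, cyc-2.2, was the one silent member with no read. All 22 genes of the citric acid and glyoxylate cycles were present, with citrate synthase cts-1 at 989 and 898 CPM per kb and aconitase aco-2 at 545 and 540. Glycolysis and gluconeogenesis genes were present in 20 of 23 cases, with pfk-1.2, gpd-1 and gpd-4 low, of which the gpd genes have near-identical copies. Their highest member was pck-2, a phosphoenolpyruvate carboxykinase that starts gluconeogenesis (415 and 349), ahead of aldolase aldo-2 (401 and 359) and enolase enol-1 (362 and 370), and these 3 levels overlapped between the libraries.

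Most genes of the fasting list and of the dauer and larval arrest list were present after 2 h 30 min of food. The fasting list had 19 of 23 genes present (median 14.7 CPM per kb) and the dauer and larval arrest list 27 of 29 (median 25.5). The glyoxylate enzyme icl-1, which lets worms make sugar from fat, reached 364 CPM per kb in replicate 1 and 149 in replicate 2, and pck-1, another phosphoenolpyruvate carboxykinase, 186 and 162. The lipid regulator nhr-49, a nuclear receptor, stood at 65.1 and 59.9. In the dauer and larval arrest list, the TGF-beta ligand daf-7 stood at 84.3 and 71.3 CPM per kb and its receptor daf-4 at 71.0 and 55.7. The insulin receptor daf-2 stood at 44.6 and 37.5. The list was not split into members that promote arrest and members that prevent it. A member's presence therefore does not show arrest. The superoxide dismutase sod-3, named after its value was seen, was low at 0.180 and 0.221 although it is a common reporter of the insulin pathway's transcription factor DAF-16.

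Constitutive chaperones were abundant, and heat-inducible ones differed from each other. The constitutive HSP70 gene hsp-1 stood at 2566 and 2520 CPM per kb in replicates 1 and 2, hsp-90 at 1718 and 1618 and the mitochondrial chaperonin hsp-60 at 513 and 532. By contrast hsp-70, a heat-inducible gene named after its value was seen, was low at 1.76 and 0.884. The small heat shock gene hsp-16.2, also named after its value was seen, was at 54.3 and 30.6, while the 4 identifiers of the hsp-16.1 and hsp-16.48 copies had no read.

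Differentiated tissues of the hatchling were strongly represented. All 38 body wall muscle genes were present, with a median of 82.8 CPM per kb, and took 2.11% of the counts in replicate 1 and 2.26% in replicate 2. The actin act-4 reached 759 and 870 CPM per kb, the regulatory myosin light chain mlc-2 780 and 824, and unc-54, the major myosin heavy chain of body wall muscle, 558 and 677. The second body wall heavy chain, myo-3, which sits at the centre of the thick filament, was far lower, with unc-54 at 16.7 and 14.2 times its level per kb. The muscle-determining factor hlh-1 stood at 13.4 and 20.7. Actin genes are near-identical in sequence, so the level of a single actin gene is uncertain.

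Pharyngeal muscle, the pump with which the larva feeds, was at a median of 49.7 CPM per kb, with 12 of 14 genes present. Its pair of myosin heavy chains were at the same level: myo-1 at 358 and 358 and myo-2 at 355 and 343, a ratio per kb of 1.01 and 1.04. The troponin T gene tnt-4 was highest at 523 and 477, and the troponin I gene tni-4 stood below both myosins at 313 and 306. The organ identity factor pha-4 stood at 39.6 and 40.1, while ceh-22, which activates pharyngeal myosin in the embryo, was at 4.52 and 3.64. The nicotinic receptor subunit eat-2, at 0.848 and 1.1, and pax-1, at 0.0777 and 0.119, were low. Gland and cuticle-lining genes of the pharynx were much lower (10 of 22 present, median 1.45, which was 1.97 in replicate 1 alone and 0.727 in replicate 2 alone), with the gland regulator hlh-6 at 2.1 and 1.39 and phat-6, a gland gene, highest at 31.5 and 26.3. The 6 silent members were pqn-2 and 5 abu genes, some of which are close copies, and 5 of the 6 had no read in either library.

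The intestine list was as high as muscle, with 39 of 40 genes present and a median of 83.4 CPM per kb. The exception was ctl-1, a catalase in a tandem of close copies, which had no read. Digestive and lysosomal enzymes led it: the aspartic protease asp-1 at 2057 and 1822 CPM per kb in replicates 1 and 2, the cathepsin B-like protease cpr-4 at 1781 and 1334, and spp-5, a saposin-like pore-forming protein that kills ingested bacteria, at 1300 and 1289. The regulator elt-2, the GATA factor that maintains intestinal expression, was at 11.1 and 14.7 CPM per kb, so the enzymes exceeded it by a wide margin.

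Epidermal genes covered a wide range of levels. Of 30 hypodermis genes 21 were present (70%, against 59.8% of all genes), with a median of 4.01 CPM per kb. That median was 5.90 in replicate 1 and 2.72 in replicate 2, against 3.63 and 3.20 over all genes. The cytoskeletal genes were high: ifb-1, an intermediate filament of the attachment to muscle, at 263 and 325 CPM per kb, vab-10, a spectraplakin, at 65.0 and 78.3, and ajm-1, of the apical junction, at 64.9 and 52.7. The epidermal identity factor lin-26 stood at 17.7 and 20.7. Of the 7 low and 2 silent genes, named after their values were seen, 7 are cuticle collagens (dpy-3, dpy-9, dpy-10, dpy-5, dpy-13, sqt-1 and rol-6), which are made in pulses around each molt. The other 5 of the list's 12 collagens were present: dpy-2, dpy-7, dpy-8, dpy-17 at 41.7 and 8.61, and sqt-3 at 42.6 and 8.75. All 12 were higher in replicate 1. Among 13 seam cell genes, which mark the lateral epidermal stem cells, 9 were present (69.2%, against 59.8% of all genes). Their median of 3.08 CPM per kb was below the 3.46 of all genes. The low members were bro-1, nhr-73, wrt-2 at 2.39 and 0.551, and grl-15 at 2.47 and 0.550. The hedgehog-like gene grd-10 was highest at 87 and 161 CPM per kb, the GATA factors egl-18 and elt-6 stood at 29.7 and 29.8 and at 14.35 and 16.42, and the seam regulators ceh-16 and rnt-1 at 2.88 and 3.28 and at 2.80 and 2.76.

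Nearly all genes of the pan-neuronal, transmitter, touch receptor and ciliary lists were present. Whether these genes are also used outside neurons was not tested. All 25 pan-neuronal genes were present (median 69.0 CPM per kb), led by genes for making and storing neuropeptides: the proprotein convertase egl-3 at 378 and 318, the carboxypeptidase egl-21 at 290 and 247, and the dense core vesicle gene ida-1 at 226 and 172. All 3 were higher in replicate 1. Genes for transmitter identity were all present too (25 of 25, median 10.1). The GABA synthesis enzyme unc-25 stood at 51.3 and 46.9, or 3.69 and 3.40 times the vesicular acetylcholine transporter unc-17 at 13.9 and 13.8. All 11 touch receptor genes were present, in an order that held in both libraries for the highest pair: the microtubule subunits mec-7 at 107 and 109 and mec-12 at 85.0 and 87.8. The channel subunits mec-4 and mec-10 were at 6.03 and 6.18 and at 4.69 and 4.56, and the factor that specifies these neurons, mec-3, was lowest at 2.62 and 2.81. Of 33 ciliary genes 32 were present (median 6.38; the exception was dyf-7), with daf-19, the RFX factor that turns on ciliary genes, at 30.5 and 29.8 and the kinesin subunit klp-11 at 24.5 and 22.1.

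Smaller cell groups were represented to different degrees. All 7 coelomocyte genes were present, from lgc-26 at 8.42 and 7.13 CPM per kb to the endocytic recycling gene rme-1 at 50.8 and 52.8, although rme-1 and other endocytosis genes are used in many cells. The coelomocyte-specific unc-122 stood at 9.65 and 9.32. Of 13 excretory genes 12 were present, and exc-6 was low at 1.39 and 0.962. The highest were nhr-31, a receptor needed for growth of the excretory cell tube, at 113 and 120, and the proton pump subunit vha-5 at 91.9 and 102. The aquaporin gene aqp-8 differed between the libraries at 29.3 and 13.3. Of 11 glial genes 7 were present, with vap-1, a secreted protein of the amphid sheath, highest at 84.0 and 89.6, and hlh-17, ptr-10, delm-1 and delm-2 were low. The glial share, 63.6%, was near the 59.8% of all genes, and the list's median of 3.03 CPM per kb was below the 3.46 of all genes.

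**Figure D2:**
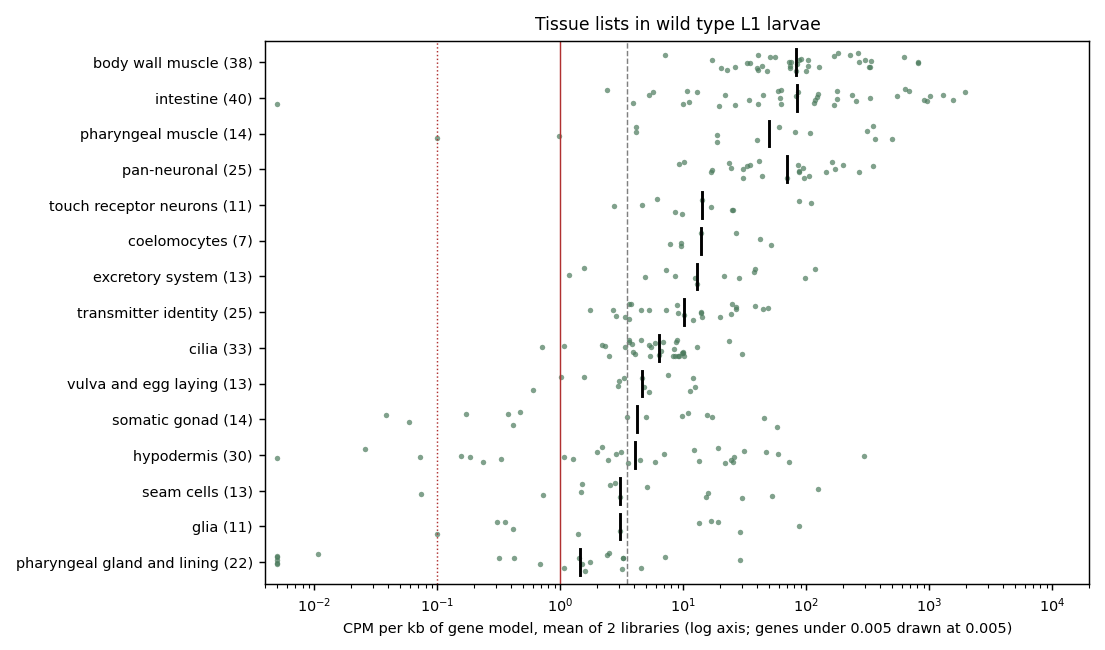
Mean CPM per kb of each gene in 15 tissue lists of wild type L1 larvae, on a log axis, with the number of genes in parentheses and the median of each list as a black bar. Genes under 0.005 are drawn at 0.005. The red lines mark 1 (solid) and 0.1 (dotted) CPM per kb and the grey dashed line the median of all genes, 3.46, and the body wall muscle and intestine lists lie almost wholly to its right.

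The heterochronic genes, which time larval stages, differed widely in level. In the list 13 of 14 genes were present. The nuclear factor lin-14 and the RNA-binding protein gene lin-28, which specify early larval fates, led it at 91.3 and 87.8 CPM per kb and at 68 and 67.3 in replicates 1 and 2, while lin-29, the factor that triggers adult epidermal fates, stood at 1.54 and 1.37. The width used for lin-14, 1923 bases, is shorter than its exons in WBcel235, 3665 bases, and per kb of exon its mean level was 47.01 CPM, below the 80.9 of lin-28. The lin-29 cofactor mab-10 was silent at 0.0853 and 0.0697. In between stood the argonaute alg-1 at 39.3 and 38.8, the nuclear receptor daf-12 at 18.5 and 23.7, and hbl-1, a zinc finger factor that holds back later larval fates, at 17.9 and 18.3.

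Body axis genes were all present (10 of 10, median 10.03 CPM per kb). The Hox cofactors ceh-20 and unc-62 were highest at 73.2 and 84.9 and at 35.6 and 43.2. The width used for unc-62, 2899 bases, is shorter than its exons in WBcel235, 6345 bases, so its level per kb of exon is lower. Among the Hox genes lin-39, of the mid-body, stood at 17.8 and 17.1, ahead of php-3, of the tail, at 10.49 and 12.56 and mab-5, of the posterior body, at 9.79 and 10.6, and the posterior gene egl-5 was at 3.16 and 4.02. The levels of php-3 and mab-5 overlapped between the libraries.

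Genes of adult structures were near the floor. Of 10 adult cuticle genes 4 were silent and 5 low. The one exception, col-129, stood at 3.60 and 2.86 CPM per kb, and the adult-specific collagen col-19 had 0.0591 CPM per kb in replicate 1 and 0 in replicate 2. All 6 vitellogenin genes, which make yolk in the adult intestine, were silent. Few reads fell on vit-1 (0.0807 and 0.0471 CPM per kb), vit-2 (0.0243 and 0.0124) and vit-6 (0.0710 and 0.0725). The close copies vit-3, vit-4 and vit-5 had no read. Vulva and egg-laying genes, by contrast, were present in 11 of 13 cases at modest levels (median 4.59), led by the Wnt pathway's bar-1 at 12.33 and 12.61 and the EGF-like lin-3 at 12.5 and 11.3. These regulators act in other tissues as well. The vulval marker egl-17, an FGF, was low at 0.884 and 1.13.

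Germline genes ranged from present to silent. Of 32 genes for germ granules and germ cell identity 26 were present (median 5.50 CPM per kb). The P granule scaffold pgl-1 stood at 10.2 and 9.11, and the highest members, ife-1 at 59.1 and 60.8, car-1 at 47.4 and 47.4 and cgh-1 at 37.6 and 45.5, are RNA regulators of which some also act in somatic cells. The nanos-related nos-2 was low at 0.762 and 0.678. Meiosis genes were present in 29 of 34 cases at a low median of 2.55, below the 3.46 of all genes. The highest, him-1 at 47 and 47.9 and mre-11 at 18.7 and 20.1, belong to cohesin and DNA repair in all dividing cells, while the meiotic axis gene htp-1 was at 1.44 and 1.5. Oogenesis and eggshell genes had a median of 2.86, with 21 of 26 present (80.8%, against 59.8% of all genes). That median was 3.62 in replicate 1 and 2.13 in replicate 2, against 3.63 and 3.20 over all genes. The highest oogenesis members, lin-41 at 37.5 and 48.1 and skn-1 at 41.3 and 37.8, are also larval regulators. The oocyte maturation gene oma-1 stood at 2.65 and 1.67.

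Sperm genes were mostly silent. Of 79 genes 52 were silent, 20 were low and 7 were present, and the list's median was 0. The present ones, in part named after their values were seen, were spe-48 at 16.12 and 15.45 CPM per kb, spe-39, a vesicle trafficking gene also used outside sperm, at 10.6 and 11.6, fog-1, which directs germ cells to the sperm fate, at 4.22 and 4.36, and spe-15, spe-4, spe-29 and fog-2 between 1.01 and 3.95. The 30 major sperm protein genes together had 1 read in replicate 1 and 2 reads in replicate 2. As these genes are near-identical, this number bears the limit on duplicated genes given above.

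The somatic gonad and male lists were divided as well. Of 14 somatic gonad genes 8 were present, a share of 57.1% that was near the 59.8% of all genes. The Wnt effector pop-1 at 47.5 and 68.5 and the metalloprotease gon-1 at 40.7 and 50.2 were highest, and both act in many tissues. Other genes used in gonad development were lower: hnd-1 at 0.862 and 0.0733, the Notch ligand lag-2 at 0.447 and 0.381, and ehn-3 at 0.0762 and 0. For male functions, 4 of 15 genes were present. They were tra-2 at 15.9 and 17.6 and fem-3 at 4.13 and 3.26, which belong to sex determination in both sexes, and cwp-4 at 8.33 and 8.76 and the kinesin klp-6 at 6.98 and 6.36. The male sensory polycystin gene lov-1 was silent at 0.0241 and 0.00614.

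Zygotic regulators of the early embryo were mostly low. Of 20 genes 2 were present, the posterior factor pal-1 at 6.89 and 5.51 and vet-2 at 4.88 and 1.89, and 13 were low. The silent ones, named after their values were seen, were tbx-35, tbx-37, sdz-23, hlh-26 and hlh-27. The endomesoderm regulator med-1, which has a close copy, was low at 0.0942 and 0.192. Molting genes were mostly present (27 of 30, median 5.19 CPM per kb). The cycle regulators nhr-23, a nuclear receptor, and lin-42, the worm relative of period, stood at 2.27 and 3.94 and at 1.38 and 1.74, while the Notch co-ligand osm-11 at 144 and 108, pan-1 at 55.9 and 76.7 and the endocytic receptor lrp-1 at 56.4 and 46.1 were highest.

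**Figure D3:**
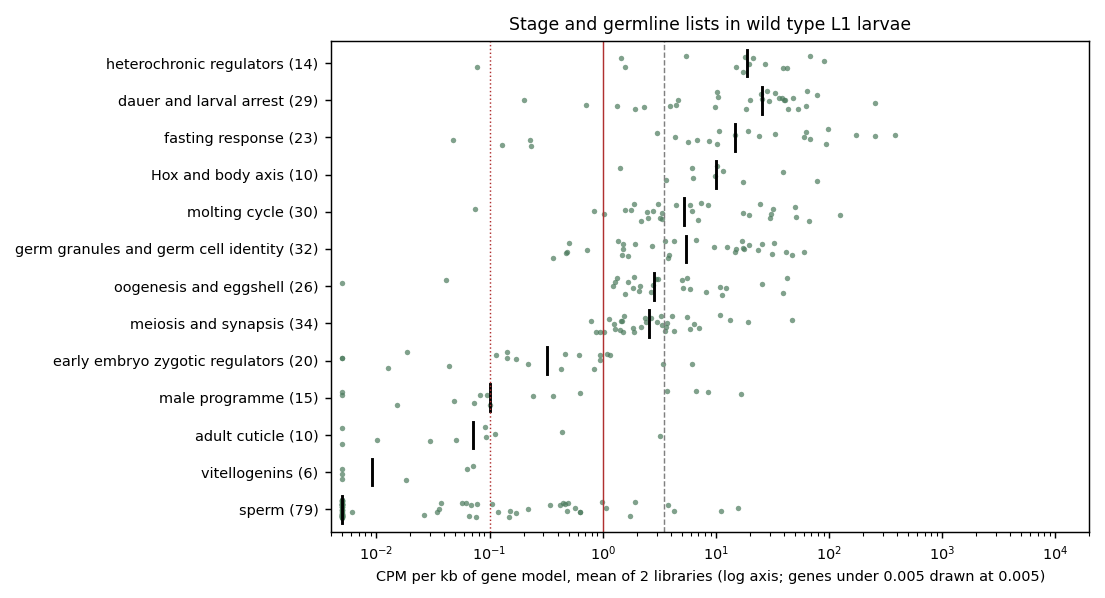
Mean CPM per kb of each gene in 13 stage and germline lists, drawn as in the plot of tissue lists. Medians fall from 18.9 for heterochronic regulators and 25.5 for dauer and larval arrest genes to 0.0714 for adult cuticle, 0.00917 for vitellogenins and 0 for sperm genes, and single genes of the germline lists spread over several powers of 10.

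Large gene families differed in how much of their membership was in use. Neuropeptides were the most complete: 30 of 31 FLP genes (median 41.5 CPM per kb) and 65 of 71 NLP genes (median 20.7) were present. The one silent FLP gene, flp-23, had no read. The FMRFamide-like gene flp-1 stood at 522 and 427 CPM per kb, flp-6 at 311 and 246, and nlp-49 at 290 and 236, all higher in replicate 1. Insulin-like peptide genes were less complete, with 17 of 39 present, led by ins-17 at 47.5 and 31.7 and ins-30 at 30 and 39.

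Detoxification families differed in coverage. Present were 43 of 49 glutathione S-transferases (median 9.26) and 55 of 67 UDP-glucuronosyltransferases (median 6.77), but 40 of 73 cytochrome P450 genes (median 1.55), whose share of 54.8% was below the 59.8% of all genes. The highest were gst-1 at 443 and 269 CPM per kb, the oxidative stress reporter gst-4 at 236 and 105, ugt-46 at 90.7 and 98.6, ugt-17 at 96.3 and 84.3 and cyp-29A2 at 24.7 and 30.2. Both gst genes were higher in replicate 1. Nuclear hormone receptors, ligand-regulated transcription factors expanded in worms, were present in 183 of 268 cases. Their share of 68.3% and median of 4.30 CPM per kb were not far above the 59.8% and 3.46 of all genes.

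Chemoreceptors, the largest worm family, were the least complete, with 71 of 1293 present, 620 low, 602 silent and 287 without a read. Their median was 0.0891 CPM per kb, and they took 0.0519% and 0.0473% of the counts. Many are known to be made in single sensory neuron pairs. The highest were srr-4 at 35.2 and 33.6, srx-45 at 11.4 and 10.8 and srw-86 at 12.98 and 3.72.

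F-box genes, substrate adaptors of ubiquitin ligases, were present in 83 of 322 cases (median 0.258, with 0.336 in replicate 1 and 0.167 in replicate 2), MATH and BATH genes in 38 of 73 (median 1.19) and PALS genes, of the response to intracellular pathogens, in 10 of 36 (median 0.565). C-type lectins split between 84 present and 98 silent genes of 240, and clec-63, at 602 and 602 CPM per kb, stood between the 2 values of the myosin unc-54. Collagens were present in 53 of 179 cases (median 0.232). The cuticle collagens col-10 at 218 and 397 and col-166 at 244 and 344 reached the level of the basement membrane collagen let-2 at 274 and 295. The levels of all 3 overlapped between the libraries.

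**Figure D4:**
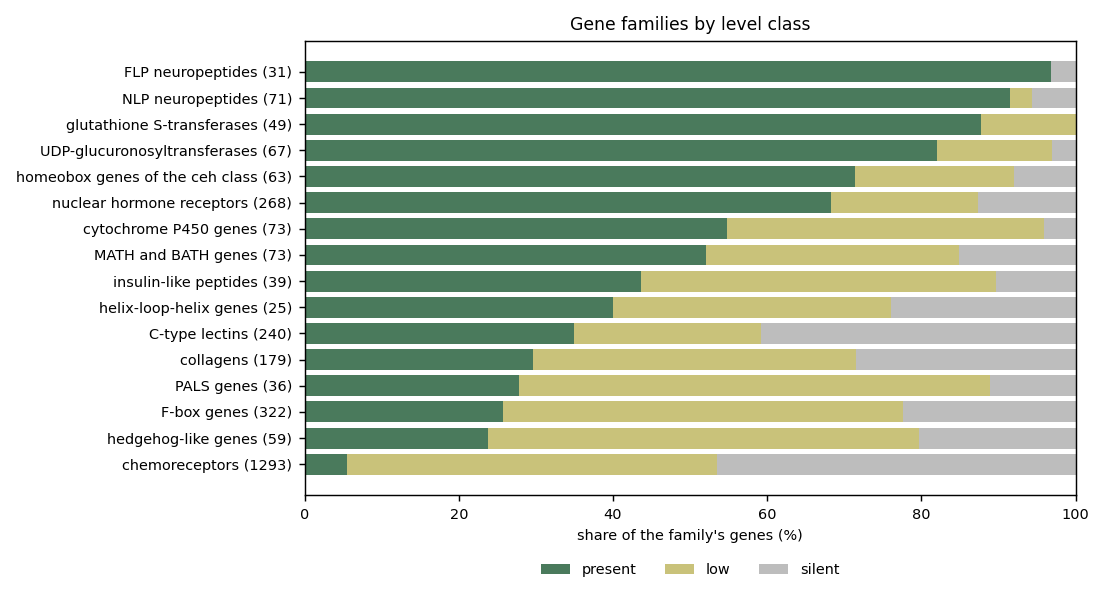
Share of genes that were present, low or silent in each of 16 gene families of wild type L1 larvae, with the number of genes in parentheses. Families are ordered by the share present, with FLP neuropeptides at the top (30 of 31) and chemoreceptors at the bottom (71 of 1293), against 59.8% of all genes.

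Genes that place or read methylation of histone H3 at lysine 36 were all present. The methyltransferase met-1 stood at 32.7 and 30.1 CPM per kb, mes-4, which maintains the mark on germline genes, at 17.5 and 18.2, the third methyltransferase lin-59 at 45.2 and 43, and the chromodomain reader mrg-1 at 30.6 and 32.6.

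Chromosomes differed in their share of present genes. Chromosome III had 73% of its genes present and a median of 10.4 CPM per kb, chromosome I 68.8% and 7.81, the X chromosome 67.1% and 4.52, chromosome IV 59.5% and 3.52, chromosome II 56.3% and 2.58, and chromosome V 47.4% and 0.978. Chromosome V is known to carry many chemoreceptor and F-box genes, and 25.2% of its genes were silent. Among present genes alone the medians were closer, from 11 on X and 11.4 on V to 19.6 on III. Along the autosomes, 66.1% of the 9452 genes in the central 50% of each chromosome's length were present (median 6.09), against 50% of the 7692 genes in the remaining outer stretches (median 1.31). Silent genes were also shorter, with a median width of 918 bases, against 981 in low and 1374 in present genes. Among 664 identifiers annotated as pseudogenes in WBcel235, 15.8% were present and 47.9% silent.

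The 2 libraries ranked genes almost alike and differed in a minority of genes. Over 18417 genes with a read in either, log2(CPM + 1) correlated with a Pearson r of 0.993 and a Spearman rho of 0.987, across genes that are not independent replicates. Agreement was read more closely from ratios: the median size of the log2 CPM ratio was 0.169 among the 9615 genes at 5 CPM or more on average, and 91.7% of these lay within 1.5-fold. The biological coefficient of variation estimated by edgeR was 19.8% over all 18417 genes and 16.8% over the 9615. The counts nevertheless differed beyond sampling noise, with a chi-square of 35.1 per degree of freedom over 15370 genes, and the libraries were counted as 2 samples.

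At least 2-fold differences were found for 224 of the 9615 genes (2.33%), of which 190 were higher in replicate 1 (1.98%) and 34 higher in replicate 2 (0.354%). The share fell with abundance, from 13% at 1 to 5 CPM, to 4.12% at 5 to 20, 1.35% at 20 to 100, 1.23% at 100 to 1000 and 0.787% at 1000 CPM or more, where it was 1 of 127 genes. For the genes furthest apart among those at 5 CPM or more, in CPM, cyp-13A8, a cytochrome P450, had 9.41 in replicate 1 and 1.07 in replicate 2, ZK218.5 had 19.05 and 2.30, the transthyretin-like ttr-50 had 12.65 and 1.72, dod-3 had 9.50 and 1.53, and the collagen col-165 had 35.6 and 5.83. On the other side, cpg-18 had 1.83 CPM in replicate 1 and 8.96 in replicate 2, the acyltransferase dgat-2 had 6.46 and 27.4, mxl-3, which represses lysosomal lipases in fed worms, had 34.7 and 135.9, scl-6 had 8.11 and 28.5 and F08F3.4 had 24.3 and 79.7.

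Listed programmes moved between the libraries in opposite ways. Among genes at 5 CPM or more, 16 of 18 fasting genes and 13 of 14 oogenesis genes were higher in replicate 1. Their medians, taken for each list from log2 ratios of CPM + 1, were 0.22 and 0.67. For icl-1 the levels were 1220 CPM in replicate 1 and 500.04 in replicate 2, and for cav-1, a caveolin of the germline, 34.4 and 16.22 CPM per kb. Lower in replicate 1 were all 25 translation factors (0 of 25 higher, median -0.17), 73 of 80 ribosomal protein genes (7 higher, median -0.13) and 14 of 16 nucleolar genes (2 higher, median -0.18). Over all 9615 genes the median log2 CPM ratio, here without the added 1 CPM, was 0.0174, and 5058 were higher in replicate 1. Under TMM scaling every ratio shifted by -0.0731, so that 3988 of the 9615 were higher in replicate 1, while the counts became 15 of 18 fasting, 13 of 14 oogenesis, 0 of 25 translation and 3 of 80 ribosomal protein genes. With 1 library on each side, these differences have no replicate check, and their source was not tested.

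**Figure D5:**
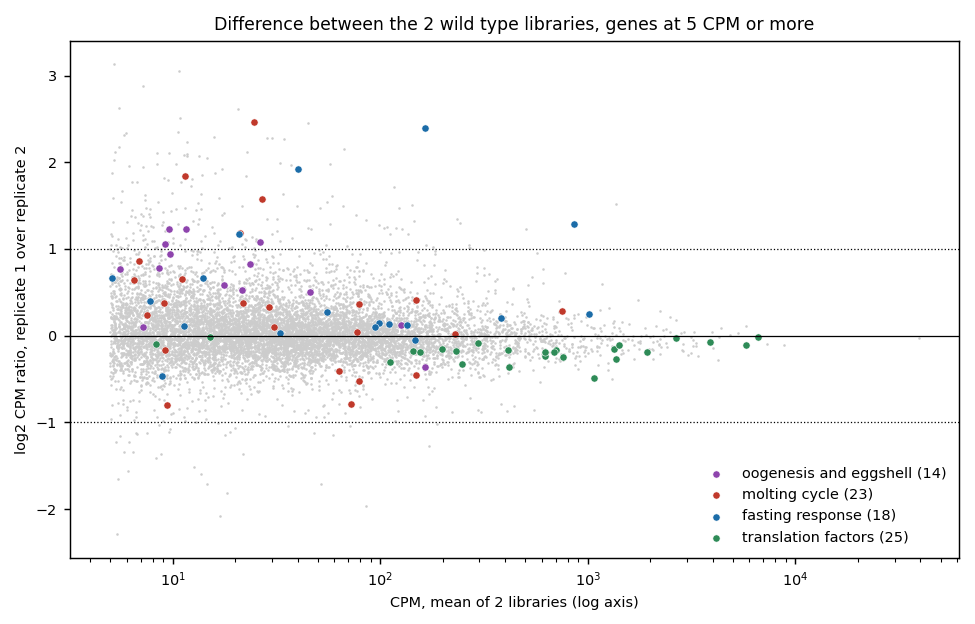
Log2 CPM ratio of replicate 1 over replicate 2 against mean CPM on a log axis, for the 9615 genes at 5 CPM or more (grey), with 4 lists in colour. Dotted lines mark 2-fold differences, which 2.33% of genes reached. Translation factors (green) all lie below 0, while 16 of 18 fasting genes (blue) and 13 of 14 oogenesis genes (purple) lie above it.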

How the data were processed

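RNA was measured in 2 wild type libraries of L1 larvae. Per the labels' protocols, larvae were lysed in Trizol, the RNA was cleaned on RNeasy columns with DNase, and 5 µg of it went into the ScriptSeq Complete Gold library kit. That kit removes ribosomal RNA instead of selecting polyadenylated RNA. The authors deposited raw counts per gene for 20392 WormBase identifiers with a width per gene model, and a second table of normalized log2 values. Those deposited log2 values equal log2(count × factor + 8), with factors of 0.936 and 0.955 for the wild type replicates 1 and 2. This was worked out from the values. Per the submitters' processing notes the genome build was ce10. For the aligner, the counter, the annotation and the strandedness nothing is given in the sources used here, so levels of overlapping, antisense or near-identical genes are uncertain.

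CPM used the library totals, 33272359 and 32593317, and CPM per kb the deposited width. The width was within 1.25-fold of the WBcel235 exon length for 81.7% of genes. Symbols (19191 identifiers), chromosomes and exon lengths came from WBcel235, which is not the authors' build, so no coordinates are printed. No sequence was used here. Every count and level was computed in Python 3.11.15 with pandas 2.3.3. TMM factors and the coefficient of variation came from edgeR 4.0.16 and size factors from DESeq2 1.42.0, both in R 4.3.3. The TMM and size factors were estimated over all 4 libraries of the series, and the coefficient of variation over the 2 wild type ones. A single group of 2 libraries allows no test, so levels are described per library and no p-value is given. The coefficient of variation was tested on simulated data.

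The 57 gene lists and the members named were chosen with earlier results of these data known. From the ribosomal list, genes of replication protein A that share a name pattern were taken out after the data were seen. The text names genes among the 20 highest by CPM and by CPM per kb, the 3 highest and the defining regulators of each list, members of lists under 15 genes, and the 5 furthest apart between the libraries in each direction. The other genes were named after their values were seen, among them myo-3, the members of counts of 5 or fewer and low or silent members. Alternatives to the scaling, length, thresholds and pseudocount are given at the end. Intervals and floors cover counting error only.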

Additional observations from a re-analysis of the deposited data

How the results depend on the processing

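The number of present genes (12194) was 13296 at a threshold of 0.5 CPM per kb and 10967 at 2, and between 12148 and 12349 with TMM, size factors, the deposited normalized values, no length, or totals without mitochondrial genes or without nduo-3. Replicate 1 alone gave 12785 and replicate 2 alone gave 12339. The share of counts in the 20 most abundant genes, 12.8%, was 8.36% with mitochondrial genes left out of the total, 14.6% when ranked and summed per kb, and 9.58% without nduo-3, an alternative chosen after seeing the data. The correlation between the libraries, 0.993, was 0.984 among genes at 5 CPM or more in both. Of 57 lists, 42 had a median of 1 CPM per kb or more, and 39 to 44 did under the alternatives tried. With WBcel235 exon length, 1 list changed class, the male programme, from 0.101 to 0.0675 CPM per kb. With the total less mitochondrial and ribosomal protein genes 1 did, chemoreceptors, from 0.0891 to 0.109. In replicate 2 alone, the male programme (0.0637) and the pharyngeal gland and lining (0.727) changed class. List medians that moved by over 1.5 times in 1 library alone were, beside F-box genes, those of the early embryo (0.324, and 0.160 in replicate 2), hedgehog-like genes (0.465, and 0.254 in replicate 2), insulin-like peptides (0.486, and 0.774 in replicate 1) and the male programme (0.165 in replicate 1). No paired analysis was possible because a single group was described and its values come from no test. A planned count of a GATA motif in promoters was not run, and agreement of the libraries cannot be recomputed without one of them. With 2 libraries, the spread of each gene rests on 1 difference, and a gene under 0.1 CPM per kb rests on few reads.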

Other observations

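Genes in none of the 57 lists numbered 16523, took 64.9% of the counts in replicate 1 and 63.96% in replicate 2, and were present in 64.1% of cases. The highest of them by CPM per kb, chosen after their values were seen, include ribosomal protein genes that the table's symbols did not match: C37A2.7, rplp-2.1 in RefSeq, at 1882 and 2006 CPM per kb in replicates 1 and 2, and Y37E3.8, rpl-27A in RefSeq, at 1780 and 2096. The fatty acid and retinol binding protein gene far-1 stood at 2216 CPM per kb in replicate 1 and 2482 in replicate 2, and the mitochondrial ADP/ATP carrier ant-1.1 at 2284 and 2221. The calreticulin gene crt-1, a calcium-binding chaperone of the endoplasmic reticulum, was at 1902 and 1638, and ahcy-1, which clears S-adenosylhomocysteine after methylation reactions, at 1274 and 1475. The nucleolin gene nucl-1 stood at 1039 and 1209, lower in replicate 1 as were most genes of the nucleolar list. The alcohol dehydrogenase adh-1 differed most among the 12 highest, with 1537 CPM per kb in replicate 1 and 537.9 in replicate 2.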
